A study of Mus musculus with 10 samples.

Results

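The Gabra2 gene cluster holds 4 genes of GABA-A receptor subunits side by side on mouse chromosome 5: Gabrg1, Gabra2, Gabra4 and Gabrb1. They are the rows GABRG1, GABRA2, GABRA4 and GABRB1 of the deposited table, 4 of its 24982 genes, and all 4 passed the low-count filter that left 14867 genes for testing. The cluster was selected on the measured Gabra2 level, which was uneven among the libraries, so the Gabra2 values below are a description with no test. The other 3 genes were taken because they are its neighbours, and the question put to them was whether they follow Gabra2 from library to library.

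RNA was sequenced from micro-dissected dentate gyrus, the granule neuron layer region of the hippocampus, of male mice aged 10 weeks on a C57BL/6 background. One group was 5 wild-type mice (WT), the other 5 mice with a global knockout (KO) of Fndc5, the gene of the membrane protein from which the hormone irisin is cleaved, and each mouse gave 1 library. The knockout is global, so it is limited to no cell type, and the labels name no litter or substrain. The sample descriptions carry the same date and code for all libraries, and sample indices in which WT and KO alternate by mouse number. Levels are given as CPM, a gene's counts per 1000000 counts of the TMM-scaled library total. Fndc5 itself was at 69.2 to 80.3 CPM in WT and at 45.4 to 56.7 CPM in KO libraries, with no overlap. Which part of the gene is deleted is not stated in the labels, and reads from outside that part do not check it.

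GABA-A receptors are chloride channels that open when GABA binds, and they carry most fast inhibition in the brain. Each is a ring of subunits, as a rule with alpha, beta and a gamma or delta members, and the alpha subunit sets much of the channel's kinetics, position and drug response. Gabra2 encodes alpha2, common in hippocampal principal neurons, Gabra4 encodes alpha4, which in dentate granule neurons often joins delta in receptors outside synapses, Gabrb1 encodes beta1, and Gabrg1 encodes gamma1. As a limit of the label C57BL/6, Gabra2 is one of the genes known to differ between its substrains: C57BL/6J, the strain of the reference genome, carries an intronic deletion that lowers Gabra2 mRNA in brain, and C57BL/6N does not. The labels do not say which substrain these mice were, and their genotype at that site was not tested.

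The cluster spans 1.4 Mb of chromosome 5, from 70751047 to 72149572 (GRCm38, the same assembly as the mm10 of the submitters' processing notes). Gabrg1 lies on the minus strand from 70751047 to 70842617, and Gabra2, also on the minus strand, from 70958392 to 71095849, 115.8 kb away from it. Gabra4 follows on the minus strand from 71569734 to 71658308, after a gap of 473.9 kb that holds Cox7b2. Gabrb1 runs the other way, on the plus strand, from 71657921 to 72149572. By their RefSeq spans Gabra4 and Gabrb1 start head to head and overlap by 388 bases. The strand setting of the authors' counting is not given in the sources used here, so reads from that overlap cannot be assigned to either gene with certainty.

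The start regions are shown because genes of one cluster can still begin in very different sequence. Each line gives 100 bases of RefSeq sequence (GRCm38.p6), 5′ to 3′ on the gene's own strand, with CpG dinucleotides in capitals. For Gabrg1 (chr5:70842618-70842717, minus strand) and Gabra2 (chr5:71095850-71095949, minus strand) these are the bases directly before the start site. For Gabra4 (chr5:71658364-71658463, minus strand) they begin 55 bases further out, beyond an annotated Gabrb1 exon. For Gabrb1 they are the bases before its inner start site (chr5:71699832-71699931, plus strand), since the bases before the outer one are exon sequence of Gabra4.
Gabrg1: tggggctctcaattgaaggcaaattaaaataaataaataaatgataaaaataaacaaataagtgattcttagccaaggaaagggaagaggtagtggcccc
Gabra2: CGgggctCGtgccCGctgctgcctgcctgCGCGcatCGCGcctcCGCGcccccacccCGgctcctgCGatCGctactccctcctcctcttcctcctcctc
Gabra4: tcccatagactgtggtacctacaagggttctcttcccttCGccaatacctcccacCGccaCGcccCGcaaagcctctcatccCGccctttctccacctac
Gabrb1: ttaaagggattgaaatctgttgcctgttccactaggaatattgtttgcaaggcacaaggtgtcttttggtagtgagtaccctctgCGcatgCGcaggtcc

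Gabra2 and Gabra4 begin in CpG-rich sequence and Gabrg1 in AT-rich sequence. Over the 250 bases before the start site there were 18 CpGs at Gabra2, 12 at Gabra4, 18 at the outer and 6 at the inner start of Gabrb1, and 1 at Gabrg1, against a median of 6 over 32851 promoters of the same length. The share of G and C was 70.0% at Gabra2 and 35.6% at Gabrg1. The letters GGGCGG, an SP1 box, were searched on both strands and found 1 time at Gabra2 and 2 times at Gabra4, and not in the windows of Gabrg1 and Gabrb1, while 32.7% of all promoters hold them. The letters TATAAA (12.4% of promoters), TGANTCA, an AP-1 site (6.75%), TGACGTCA, a cAMP response element (1.55%), and GCGTGGGCG, an EGR site (0.536%), were in none of the 5 windows.

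Gabra2 was the uneven gene of the cluster, and its unevenness lay among the wild types. The WT libraries were at 295.1 CPM in mouse 1, 157.1 in mouse 2, 151.7 in mouse 3, 119.3 in mouse 4 and 113.1 in mouse 5. The KO libraries were at 204.2, 215.6, 192.0, 209.5 and 200.4 CPM in mice 1 to 5. WT mouse 1 therefore lay above every knockout and the other 4 wild types below every knockout, so the genotype ranges overlap only through that 1 library. The mean was 167.3 ± 74.0 CPM in WT and 204.3 ± 8.96 CPM in KO (SD, n = 5 each), a coefficient of variation of 44.3% against 4.39%. Between 3045 and 9704 reads stand behind each value, so counting error is at most 1.81% of it.

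Placed in order, the 10 Gabra2 levels climb in 3 large steps and 6 small ones. The large steps were 0.35 on the log2 scale between WT mice 4 and 3, 0.29 between WT mouse 2 and KO mouse 3, and 0.45 between KO mouse 2 and WT mouse 1. The other steps, among them all 4 between neighbouring knockouts, were 0.03 to 0.08. Steps between sorted values tend to be small, so their size is a description and no test. Over the 9761 genes with a mean of at least 10 CPM, the median SD (log2 CPM) was 0.081 among wild types and 0.072 among knockouts. The highest library was 2.61 times the lowest for Gabra2, against a median of 1.19 for those genes. The Gabra2 SD among wild types was 0.55 (log2 CPM), and 5 of the 9761 genes had a larger one: Hif3a, Pisd-ps3, the ribosomal RNA precursor row RN45S, Mir6236 and Kcnj2, which are named here after their values were seen. Among the knockouts its SD was 0.064, and 59.2% of the genes had a larger one.

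**Figure D1:**
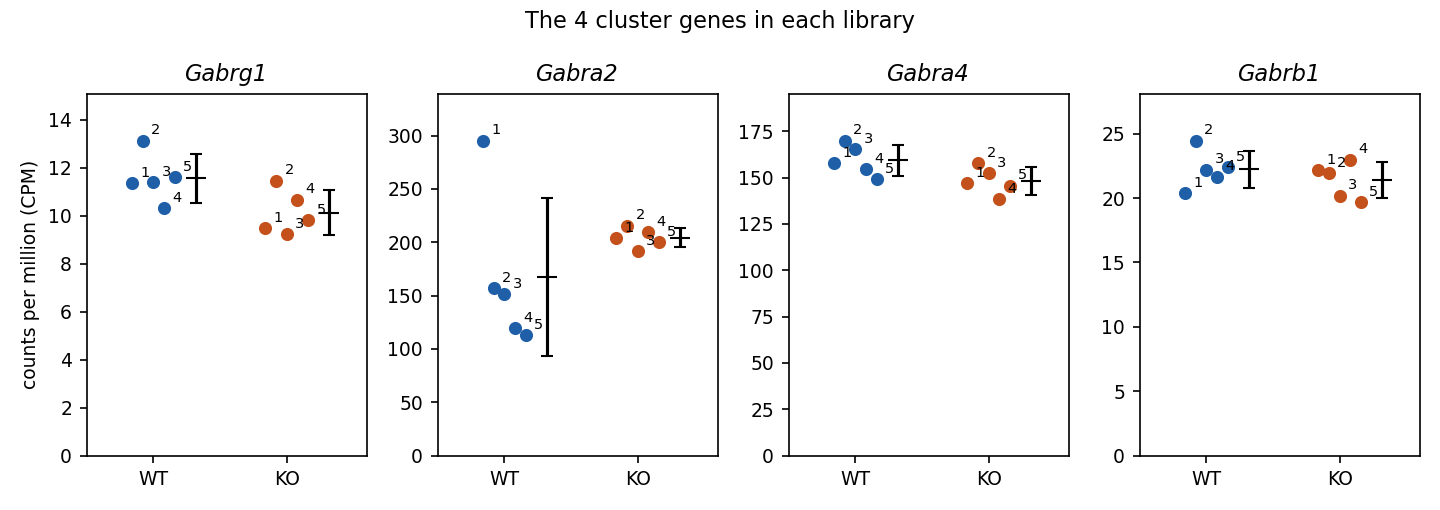
Level in CPM (y axis, from 0) of the 4 cluster genes in each library, wild type (WT, blue) and Fndc5 knockout (KO, orange), with mouse numbers beside the points and the mean ± SD of 5 libraries as black bars. Gabra2 runs from 113.1 to 295.1 CPM among the wild types and from 192.0 to 215.6 CPM among the knockouts, while the ranges of the other 3 genes are narrow in both genotypes.

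Gabra4, the other alpha subunit of the cluster, did not have this pattern. Its WT libraries were at 157.8, 169.9, 165.3, 154.4 and 149.0 CPM and its KO libraries at 146.9, 157.7, 152.2, 138.2 and 145.7 CPM in mice 1 to 5. WT mouse 1, where Gabra2 was at its highest, was in the middle of the Gabra4 wild types, and the genotypes overlapped, with 3 of 5 knockouts below every wild type. The mean was 159.3 ± 8.36 CPM in WT and 148.1 ± 7.31 CPM in KO (SD, n = 5 each). The highest library was 1.23 times the lowest.

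Gabrb1, the beta subunit gene that shares its start region with Gabra4, was even as well. Its libraries were at 20.4, 24.4, 22.2, 21.7 and 22.4 CPM in WT mice 1 to 5 and at 22.2, 21.9, 20.2, 23.0 and 19.7 CPM in KO mice 1 to 5. WT mouse 1 had the lowest wild-type value here, and the genotype ranges overlapped widely. The mean was 22.2 ± 1.47 CPM in WT and 21.4 ± 1.39 CPM in KO (SD, n = 5 each), and the highest library was 1.24 times the lowest.

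Gabrg1, the gamma subunit gene nearest to Gabra2 on the chromosome, had the fewest reads of the cluster, 255 to 501 per library, with a counting error of up to 6.26%. It was at 11.4, 13.1, 11.4, 10.3 and 11.6 CPM in WT mice 1 to 5 and at 9.50, 11.5, 9.23, 10.7 and 9.81 CPM in KO mice 1 to 5. WT mice 1 and 3 had nearly the same Gabrg1 level, although their Gabra2 levels differed widely. The mean was 11.6 ± 1.01 CPM in WT and 10.1 ± 0.920 CPM in KO (SD, n = 5 each), with 3 of 5 knockouts below every wild type and an overlap through the other 2.

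Per length, on the scale of CPM per kilobase of annotated exon, the 2 alpha genes stood far above the other members. Gabra4 was at 26.2 ± 1.37 in WT and 24.4 ± 1.20 in KO, and Gabra2 at 21.9 ± 9.69 and 26.7 ± 1.17 (SD, n = 5 each). Gabrb1 was at 1.61 ± 0.106 and 1.55 ± 0.100, and Gabrg1 at 1.47 ± 0.129 and 1.29 ± 0.117. The order of Gabra2 and Gabra4 differed by library: Gabra2 was at 14.8 to 20.6 in WT mice 2 to 5, below every Gabra4 value, and at 38.6 in WT mouse 1, above every one. In each knockout library Gabra2 was above Gabra4, only barely so in KO mouse 3 (25.13 against 25.03). Annotated exon length includes every annotated transcript end, so levels of genes that use a shorter end are understated.

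The 3 neighbours did not follow Gabra2 across its wide range among the wild types. Between WT mouse 5 and WT mouse 1, where Gabra2 differed 2.61-fold, the ratio was 1.06 for Gabra4, 0.978 for Gabrg1 and 0.911 for Gabrb1. On the log2 CPM scale, the change per unit of Gabra2 among the 5 wild types was 0.04 for Gabra4, 0.03 for Gabrg1 and -0.08 for Gabrb1, where a gene that follows in full would have 1. Over the 10 libraries with the genotype means removed it was 0.04, 0.06 and -0.07. Among the knockouts it was 0.03, 1.85 and 1.06, over a Gabra2 range of 1.12-fold. These slopes are descriptions, since the Gabra2 values chose the cluster.

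Because the Gabra2 levels fall into steps, correlations with them are given as descriptions, with no p. Over the 10 libraries Pearson's r with Gabra2 was -0.15 for Gabra4 (Spearman's rho -0.13), -0.19 for Gabrg1 (rho -0.19) and -0.39 for Gabrb1 (rho -0.25). Without WT mice 5 and 4, the libraries farthest from the Gabra2 median on the log2 scale, r was -0.38, -0.20 and -0.50, and without WT mouse 1, the farthest in CPM, it was -0.31, -0.37 and -0.24. With the genotype means removed it was 0.21, 0.18 and -0.29, so the negative sign of Gabra4 and Gabrg1 over all libraries was not seen within genotypes. Within a genotype, with 5 libraries each, it was 0.29, 0.15 and -0.49 among wild types, where Gabra2 varied, and 0.03, 0.92 and 0.72 among knockouts, where it hardly did.

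**Figure D2:**
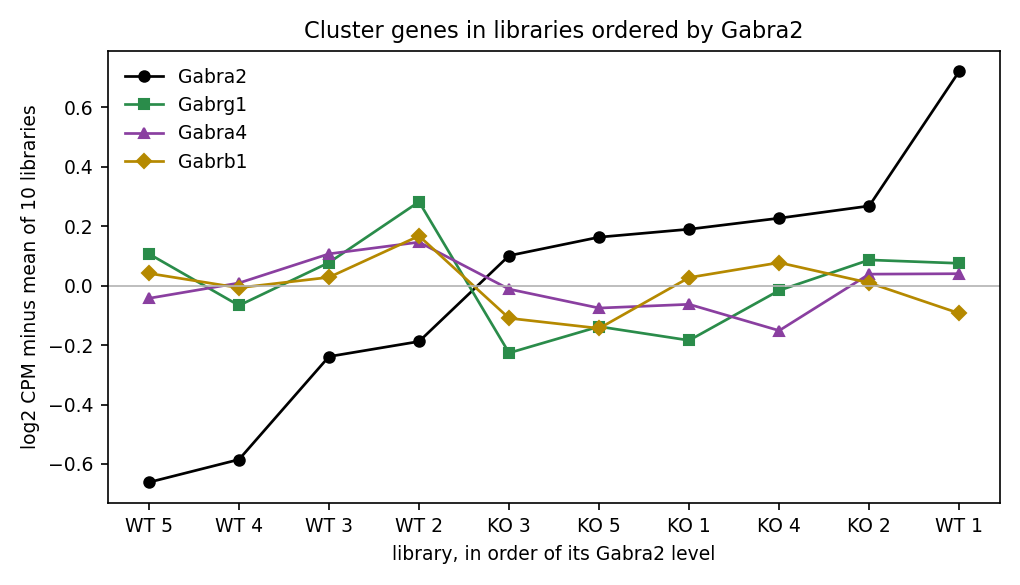
log2 CPM of the 4 cluster genes minus each gene's mean over the 10 libraries (y axis), with libraries on the x axis in order of their Gabra2 level. Gabra2 climbs from WT mouse 5 to WT mouse 1 across a 2.61-fold range, and Gabrg1, Gabra4 and Gabrb1 stay close to their means without that climb.

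The neighbours varied more like one another than like Gabra2. Over the 10 libraries r was 0.66 between Gabrg1 and Gabrb1, 0.63 between Gabrg1 and Gabra4, and 0.28 between Gabra4 and Gabrb1, the pair with the shared start region. These points share library depth and tissue make-up, and the values are descriptions.

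Between genotypes, none of the neighbours of Gabra2 passed the threshold. The fold changes below come from edgeR's quasi-likelihood test over 14867 genes, of which 1 (0.00673%), Fndc5 itself, had a Benjamini-Hochberg adjusted p under 0.05. Gabra2 had a log2 fold change, KO over WT, of 0.29 (SE 0.18, 95% interval -0.10 to 0.68). These values are a description without a p, because the unevenness of Gabra2 chose the cluster. The fold change rests on single wild types: it was 0.59 without WT mouse 1, 0.19 without WT mouse 4 and 0.18 without WT mouse 5.

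The other 3 members had lower mean values in the knockout that did not pass. Gabra4 had a log2 fold change of -0.10 (SE 0.044, 95% interval -0.20 to -0.01), and its adjusted p in edgeR was 0.788, beside 0.0556 from a two-sided exact permutation of the 10 CPM values. Gabrg1 was at -0.19 (SE 0.080, 95% interval -0.36 to -0.02), with 0.788 as adjusted p in edgeR and 0.0635 by exact permutation. For Gabrb1 it was -0.05 (SE 0.060, 95% interval -0.18 to 0.07), with 0.889 as adjusted p in edgeR and 0.429 by exact permutation. At an unadjusted p under 0.05, 2 of the 3 were lower, Gabra4 and Gabrg1, against 3.75% of all genes tested. None of the 3 had genotype ranges apart from each other, against 0.895% of all genes. After a correction of each library for transcript GC content and length the log2 fold changes were -0.06 for Gabra4 (adjusted p 0.989), -0.08 for Gabrg1 (0.989) and 0.01 for Gabrb1 (0.998), and 0.36 for Gabra2. With sample weights in limma-voom Gabra2 was at 0.47.

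Other genes of the receptor family give the setting. Of 12 GABA-A subunit genes examined outside the cluster, 6 passed the low-count filter, and the other 6 (Gabra6, Gabre, Gabrp, Gabrq, Gabrr1 and Gabrr3) had at most 8 reads in any library. Among those that passed, 4 had lower and 2 higher values in the knockout, with a median log2 fold change of -0.09 beside 0.002 over all genes tested, of which 49.3% were lower. None passed in edgeR over all genes (smallest adjusted p 0.788). At an unadjusted p under 0.05 in edgeR there was 1 of the 6, Gabrg3, the gamma3 gene, lower at -0.19 (SE 0.084). Over all genes tested, 3.75% were lower at that threshold. Gabra3, the alpha3 gene, had -0.32 (SE 0.15), Gabrb2, the beta2 gene, -0.14 (SE 0.071) and Gabra5, the alpha5 gene, -0.05 (SE 0.037). Gabrd, the delta gene, was at 0.06 (SE 0.055) and the rho gene Gabrr2, with 5 to 15 reads a library, at 0.12 (SE 0.33). The values of Gabra4, Gabrg1 and Gabrb1 thus lie among those of these subunits, and Gabra2 has the largest positive value of the 10 tested subunit genes described here.

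**Figure D3:**
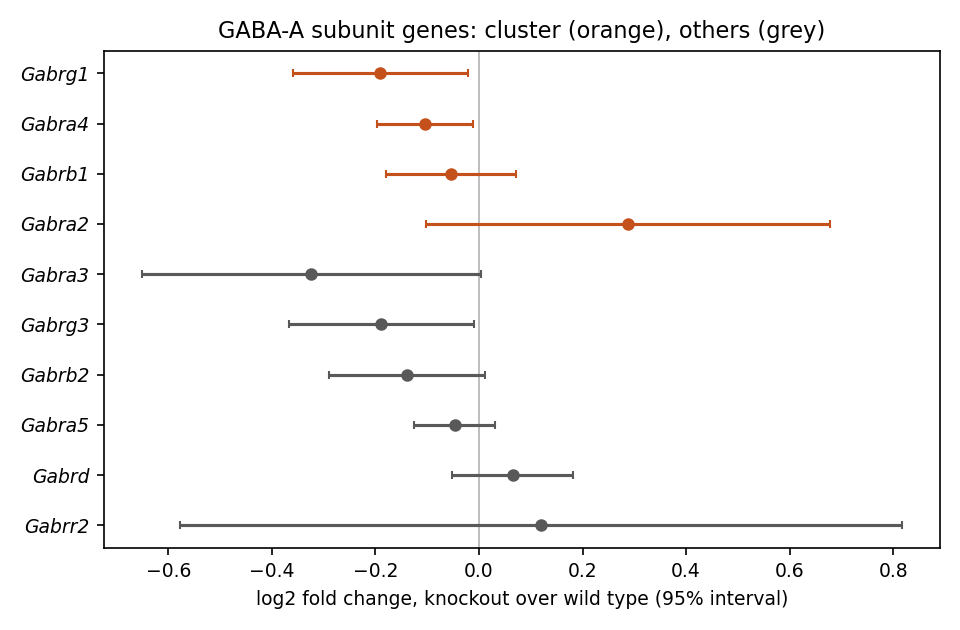
log2 fold change of KO over WT (x axis, with 95% intervals from the edgeR fit, 5 libraries a group) for the 4 cluster genes (orange) and 6 other GABA-A subunit genes that passed the low-count filter (grey). Gabra2, at 0.29, has the widest interval of the cluster genes, shown as a description and not a test. Below 0 lie 3 of the 4 cluster genes and 4 of the 6 others.

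Among these 6 subunits r with Gabra2 ran from -0.19, for Gabrb2, to 0.28. The highest was that of Gabra3 at 0.28. Like Gabra2, Gabra3 had its highest value, 16.1 CPM, in WT mouse 1, and so did Gabra5 and Gabrg3, whose r was -0.01 and -0.08. Within genotypes Gabra3 was closer to Gabra2, with r = 0.67 after the genotype means were removed, while its highest library was 2.12 times its lowest.

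Gabra2 therefore took an uneven share among the alpha subunit transcripts compared here. Of the sum of Gabra2, Gabra3, Gabra4 and Gabra5 in CPM per kilobase, it made up 25.1%, 15.9%, 15.4%, 12.2% and 12.0% in WT mice 1 to 5 and 19.3% to 21.1% in the knockouts. The sum of the other 3 was even by comparison, at 108.5 to 115.4 CPM per kilobase in WT and 102.5 to 109.5 in KO libraries. With Gabra2 included, the sum was 154.0 in WT mouse 1 and 123.3 to 135.8 in the other 9 libraries, and the other 3 alpha genes were not lower there: their sum in that mouse, 115.4, was the highest of the 10. The largest level among these 3 was that of Gabra5, at 81.8 ± 3.10 CPM per kilobase in WT and 79.2 ± 2.87 in KO (SD, n = 5 each).

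**Figure D4:**
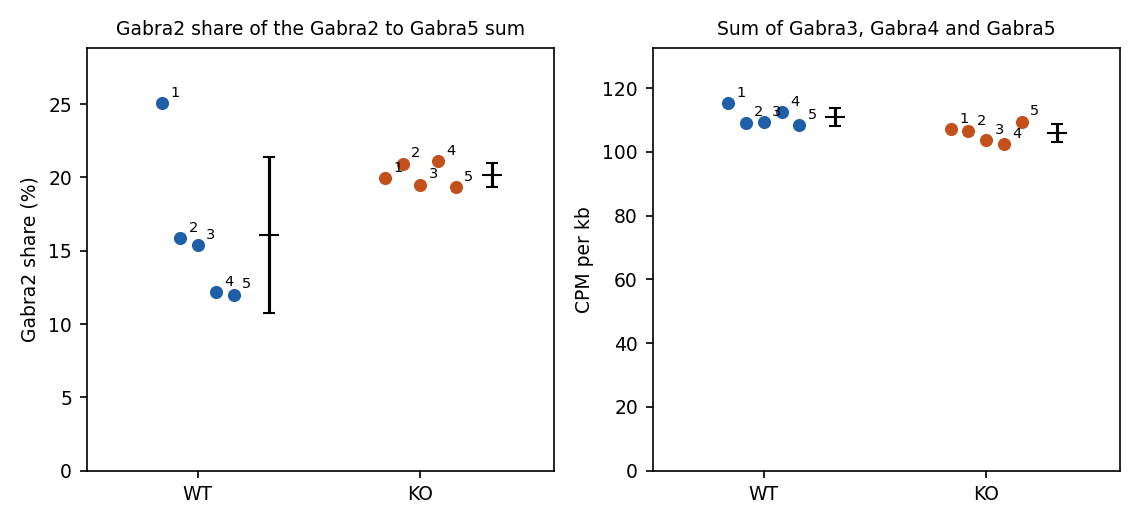
Left, Gabra2 as a share (%) of the summed CPM per kilobase of Gabra2, Gabra3, Gabra4 and Gabra5, and right, the sum of the last 3 (CPM per kilobase), by genotype, with mouse numbers beside the points and mean ± SD of 5 libraries as black bars; both y axes start at 0. The share runs from 12.0% to 25.1% among wild types and from 19.3% to 21.1% among knockouts, while the sum of the others stays between 102.5 and 115.4.

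The genes around the cluster were examined for the same pattern. Of 28 other genes in the table within the cluster or 2 Mb of it, 16 passed the low-count filter. Cox7b2, the gene between Gabra2 and Gabra4 that encodes a cytochrome c oxidase subunit, had at most 11 reads in a library and was not tested. Over the 16 genes r with Gabra2 ran from -0.37 to 0.66 with a median of -0.04. Among the wild types alone it ran from -0.65, for Dancr, to 0.81, for Ociad2, both named here after their values were seen. Ociad2 was at 43.3 to 65.3 CPM in the wild types, highest in WT mouse 1. The other r values below are over all libraries unless stated. Commd8, next to Gabrb1, was at 39.6 to 47.3 CPM in WT and 40.9 to 44.7 CPM in KO libraries (r = 0.28), and Atp10d, annotated as a transcribed pseudogene in this genome, had r = -0.23. On the other side Gnpda2, an enzyme of glucosamine metabolism, had r = 0.46 and Guf1, a mitochondrial translation factor, -0.35. Further out beyond Commd8 and Atp10d, Nfxl1 had 0.33, Tec, a kinase gene, -0.14, Slain2 0.34, Slc10a4 0.25, Fryl -0.09 and Ociad1 -0.03.

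Kctd8, which encodes an auxiliary subunit of GABA-B receptors, had the highest r of these over all libraries, 0.66, and a rho of 0.83. Among the wild types alone its r was 0.79. It lies 1.41 Mb from the cluster and has few reads, 44 to 83 a library, at 1.63 to 2.22 CPM in WT and 1.96 to 2.80 CPM in KO libraries. Its lowest library was WT mouse 5, as for Gabra2, and its highest was KO mouse 4. In edgeR its log2 fold change was 0.29 (SE 0.14, adjusted p 0.789). None of the 16 genes passed between genotypes (smallest adjusted p 0.788), and their median log2 fold change was -0.01, beside 0.002 over all genes.

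**Figure D5:**
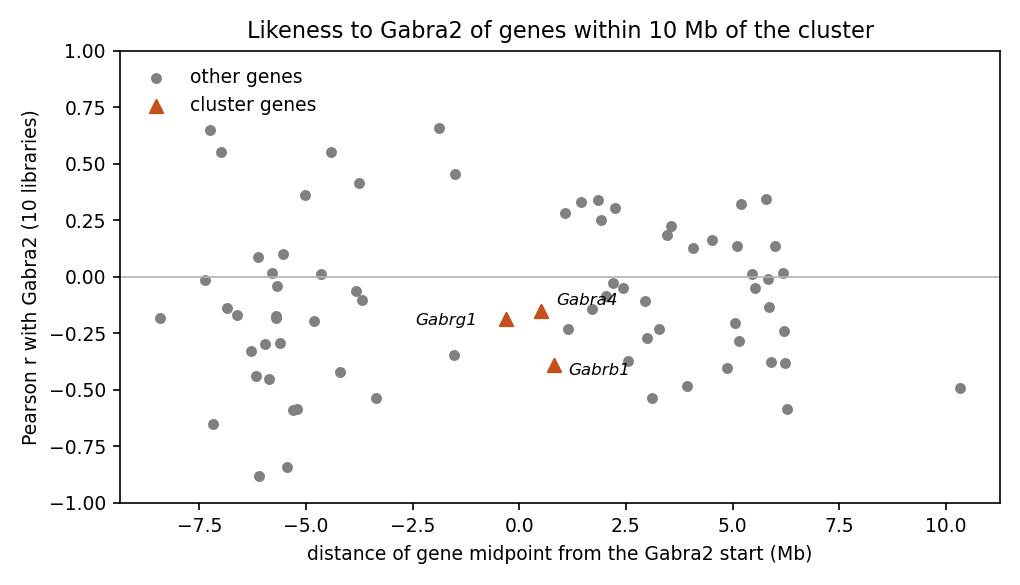
Pearson's r with Gabra2 over the 10 libraries (y axis) of 71 tested genes within 10 Mb of the cluster (grey) and the 3 neighbours in it (orange triangles), by distance of the gene's midpoint from the Gabra2 start site in Mb (x axis). The neighbours lie at -0.39 to -0.15, and the other genes run from -0.88 to 0.66.

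The window of 10 Mb was added after the values were seen. Among its 71 tested genes, 2 (2.82%) had an r beyond 0.8 in size, against 61 (0.410%) of the 14866 tested genes other than Gabra2. Both were negative: Fam114a1 at -0.88 (2.49 to 3.64 CPM), 5.71 Mb away, and Pds5a, a cohesin regulator, at -0.84 (55.5 to 68.8 CPM), 5.05 Mb away, each lowest in WT mouse 1. Their highest libraries were 1.46 and 1.24 times their lowest, far narrower than Gabra2.

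Across the whole table the genes most like Gabra2, by Pearson's r of log2 CPM over the 10 libraries, lay on other chromosomes. They were Upk1a (r = 0.93), Epm2a (0.91), which encodes the glycogen phosphatase laforin, Faim2 (0.90), an inhibitor of Fas-driven cell death in neurons, Fam131c (0.89), Bcl2l13 (0.88), a mitochondrial protein of the BCL2 family, and Polh (0.88), a DNA polymerase. Faim2 was at 523.8 to 607.3 CPM and Bcl2l13 at 62.5 to 72.7 CPM, each highest in WT mouse 1 but only 1.16 times the lowest library. Upk1a, at 0.539 to 1.22 CPM, and Fam131c, at 0.438 to 1.09 CPM, had relative ranges close to that of Gabra2, with as few as 15 and 12 reads in a library. The genes least like it were Lrmp (r = -0.92), Micu2 (-0.91), a regulator of mitochondrial calcium uptake, and Kcnrg (-0.90). With 10 libraries and 14866 genes, values of this size are a ranking and carry no test.

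For the neighbours the most similar genes were different ones. Gabrg1 was most like Cdk14 (r = 0.96), Trim37 (0.93) and Etnk1 (0.93), Gabra4 most like Lcorl (0.94), Ralgps2 (0.94) and Tm9sf3 (0.94), and Gabrb1 most like Tgif1 (0.94), Gal (0.93), the galanin gene, and Zfp36l1 (0.91). Cdk14 and Lcorl, the first for Gabrg1 and for Gabra4, are on chromosome 5, and the other 7 are not. No gene was named for more than 1 of the 4 members.

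Of 12 genes for anchoring and assembly of GABA-A receptors, none passed between genotypes in edgeR (smallest adjusted p 0.788). Their median log2 fold change was -0.01, with 8 lower and 4 higher, beside 49.3% lower over all genes tested. The 4 of the 12 with the smallest p were Ubqln1, which stabilises receptor subunits, at -0.09 (SE 0.035), Shisa7, an auxiliary receptor protein, at 0.06 (SE 0.043), Nsf, a membrane fusion factor, at -0.03 (SE 0.028) and Iqsec3, a gephyrin partner at inhibitory synapses, at -0.05 (SE 0.056). Genotype ranges did not overlap for 1 of the 12, Ubqln1, against 0.895% of all genes tested. Over the 12 genes r with Gabra2 ran from -0.53 to 0.47.

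Genes listed as differing between C57BL/6 substrains were read beside Gabra2. Nnt, whose coding sequence is partly deleted in C57BL/6J, was even, at 21.6 to 23.6 CPM in WT and 20.6 to 23.3 CPM in KO libraries, with r = 0.20. Wdfy1 was at 22.9 to 31.3 CPM in WT, with WT mouse 1 lowest, and at 24.5 to 29.6 CPM in KO libraries (r = -0.52). Ide had r = 0.42 and Fgfbp3 -0.54, and Entpd4 had 0 reads in every library.

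WT mouse 1 also stood apart in its cell type markers. All 10 dentate granule neuron markers were counted, and their summed level was lowest in that library, at 1911 CPM against 2063 to 2263 CPM in the other 9. Of these 10 markers, 5 were at their lowest there. All 10 interneuron markers were counted, and their sum was highest there, at 687.6 CPM against 548.3 to 611.8 CPM, with 8 of the 10 at their highest in that library. Among the wild types the granule sums were 1911, 2091, 2094, 2212 and 2143 CPM in mice 1 to 5, lower where Gabra2 was higher except for the order of mice 4 and 5. The interneuron sums there were 687.6, 611.8, 565.7, 595.3 and 595.4 CPM. Over the 10 libraries r of Gabra2 with the mean log2 level of the markers was -0.56 for granule neurons (Spearman's rho -0.42). It was -0.73 without WT mice 5 and 4. For interneurons r was 0.33 (rho -0.08), and 0.53 without those mice. The r values of both cell types all include WT mouse 1, the highest library for Gabra2. That library was also the lowest for the granule markers and the highest for the interneuron markers. The r without it was not computed, so these values may rest largely on that library. Astrocyte markers, for a cell type that also expresses Gabrg1 and Gabrb1, summed to 2357 to 2549 CPM in WT and 2264 to 2526 CPM in KO libraries, and WT mouse 1 was within the range of the others. CA3 neuron markers also had their highest sum in WT mouse 1, 164.4 CPM against 143.7 to 161.3 CPM. Only 1 of these 4 markers, Grik4, was at its highest there. CA1, mossy cell, oligodendrocyte and thalamus sums in WT mouse 1 lay within the range of the others. The mean relative log2 level of the oligodendrocyte markers, however, was lowest in that library, at -0.15 against -0.11 to 0.20 in the others. No marker of these lists was at 0 in all libraries. The part of cell make-up in the Gabra2 level was not tested, and in bulk tissue fewer cells of a type and less RNA per cell cannot be told apart.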

How the data were processed

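The deposited table gives raw read counts per gene symbol, which the authors made from single-end reads of 75 bases of stranded mRNA libraries (500 ng of total RNA), per the labels' protocols. The submitters' processing notes name STAR 2.5.1b, Cufflinks 2.2.1 and mm10, with no role or order; the sources used here do not give the counting settings. Depth was 26226375 to 43802079 counts a library. The titles name 1 mouse per library, and every pair within a genotype differed by more than sampling noise (chi-square per degree of freedom at least 4.64).

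Genes were filtered with filterByExpr, scaled by TMM and compared with edgeR 4.0.16 (glmQLFit, glmQLFTest, genotype alone) in R 4.3.3, with Benjamini-Hochberg adjustment over 14867 genes. CPM use TMM-scaled totals, and log2 CPM a prior count of 2. Single values were compared by exact permutation over 252 assignments. Steps were tested on simulated data. Alternatives were DESeq2 1.42.0, limma 3.58.1 voom with and without sample weights, other scaling and filters, GC and length splines (4 degrees of freedom), the mouse number as a block, and each library left out.

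Positions are from RefSeq and exon lengths from GENCODE M21, both on GRCm38; 65 of 24982 rows matched no symbol or synonym. The genes named are the members, Fndc5, other tested subunits (some are not reported here), the nearest flanking genes (up to 8 a side), the 6 genes most and 3 least like Gabra2, 3 for each neighbour, the substrain list and 4 assembly genes with the smallest p; predicted genes were passed over in the likeness ranking. Others are said to be chosen after their values were seen. Members and lists were chosen with earlier results of these data known.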

Additional observations from a re-analysis of the deposited data

Results flagged for a closer look

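In a group of 5 libraries a value was marked when its gap to the nearest other library was over 0.71 of the group's range. Of 24 groups checked, over the members, the Gabra2 share, 6 other tested subunits and Fndc5, 2 were marked. Chance gives about 1.2 in groups not chosen on their values. Gabra2 was chosen for its uneven level, and its share is built from the same values, so the count is no test. Gabra2 in WT mouse 1 was at 295.1 CPM, with a gap of 0.758 of the range, and on the log2 scale the gap was 0.657, under the limit. Gabrb2, the beta2 gene, was at 197.3 CPM in KO mouse 2, the other knockouts lying at 151.5 to 163.0 CPM.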

How the results depend on the processing

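The number of genes past the threshold was 1, and 3 with the DESeq2 Wald test, 8 with the replicate block and 8 with the block and the GC and length correction together. It was 1 to 3 with single libraries left out, 3 without WT mouse 1 and 2 without KO mouse 2, and 1 otherwise. No fit called Gabra4, Gabrb1 or Gabrg1: over 19 alternatives their smallest adjusted p was 0.279, 0.735 and 0.372. With the replicate block (mouse number as a term) Gabra4 was at -0.10, Gabrg1 at -0.19 and Gabrb1 at -0.05, as without it, and Gabra2 was at 0.37 (SE 0.13), and at 0.45 (SE 0.12) with the GC and length correction too, against 0.29 (SE 0.18). Same-numbered mice correlated at 0.209, 0.204, 0.108, 0.00901 and 0.0282, not all above 0.1, and the labels, which place same-numbered mice next to each other in sample index, name no shared litter or day particular to a number, so the numbers were not taken as pairs; for WT mice 3 and 4 and KO mice 4 and 5 another number correlated more. Gabrb1 turned from -0.05 to 0.012 with the GC and length correction and 0.010 with the block added. Gabrr2 turned from 0.12 to -0.072 with sample weights, and ranged from -0.12 (without KO mouse 5) to 0.30 with single libraries left out. With single libraries left out Gabra4 ranged from -0.13 to -0.08, Gabrg1 from -0.24 to -0.14, Gabrb1 from -0.08 to -0.02 and Gabra2 from 0.18 to 0.59. For r with Gabra2, alternatives added after seeing the data gave -0.31 to -0.05 for Gabra4, -0.37 to -0.07 for Gabrg1 and -0.47 to -0.12 for Gabrb1. The cause of these shifts was not tested. Gabrg1 had 255 to 501 reads a library, Kctd8 44 to 83 and Gabrr2 5 to 15, which limits their precision.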
